A study of Rattus norvegicus with 17 samples.

Results

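The genes described here encode the enzymes of glycolysis, the pentose phosphate pathway and the entry of pyruvate into mitochondria. They were chosen by name, as a list of 31 genes, and each is represented by the row of the array with the highest mean signal among the rows annotated to that gene alone. The table held 30 of the 31 among 14506 named genes. Pgd, which encodes phosphogluconate dehydrogenase, had no row annotated to it alone and was not analysed here. All 30 passed the level filter that kept 10879 genes for testing.

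RNA was measured in CD4+ T cells, the helper lineage of T lymphocytes, sorted from the inguinal lymph nodes of age-matched female Dark Agouti rats. Every rat had been immunized with myelin oligodendrocyte glycoprotein (MOG) 7 days earlier, which in this strain induces experimental autoimmune encephalomyelitis, an animal model of multiple sclerosis. The groups differed in dietary vitamin D, given from 5 weeks before immunization until the end: 0 IU in the deprived diet (5 arrays), 2 IU in the regular diet (6 arrays) and 10 IU in the supplemented diet (6 arrays). The series asked how vitamin D affects gene expression in these cells, and no group without immunization was analysed here.

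Glycolysis splits glucose into pyruvate and yields ATP and reducing equivalents in the cytosol. Lactate dehydrogenase turns pyruvate into lactate, whereas the pyruvate dehydrogenase complex feeds it into the mitochondrial tricarboxylic acid cycle. The pentose phosphate pathway branches from glucose 6-phosphate and supplies NADPH and the ribose of nucleotides. Activated T cells are known to raise glucose uptake and glycolysis when they begin to grow and divide, with Myc, mTOR and Hif1a among the regulators of these genes.

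Values are log2 signals, on which a difference of 1 is a doubling. Differences come from limma with standard errors (SE) of the fit and p-values adjusted over all 10879 genes, with a threshold of 0.05. Levels of different genes are not set against each other, because each probe has its own response. In sorted bulk RNA, fewer cells of a type and less RNA per cell cannot be told apart. P-values measure the spread between these arrays, which the labels call biological replicates.

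The supplemented arrays stood apart from the rest in the spread of their values, taken as the SD across every transcript cluster of an array. This spread ran from 2.03 to 2.07 for the deprived diet, from 2.00 to 2.06 for the regular diet and from 1.91 to 1.97 for the supplemented diet, and supplemented replicates 2 and 5 had the lowest values. The supplemented spread was lower than the regular one (two-sided exact permutation p = 0.00216, adjusted p = 0.00325 over 3 comparisons). Markers of other cells moved with the diet too, but so did genes at large, by level. Against the regular diet, all genes in the lower 2 quartiles of mean level had median differences of 0.11 (5.321 to 6.15) and 0.061 (6.15 to 7.068). In the top quartile (from 8.344) the median was -0.207. The tested markers had medians of 0.24 (B cell), 0.10 (myeloid) and -0.17 (T cell). Whether they moved beyond genes of like level was not tested. The array mean of 11 B cell markers was 6.03 to 6.46 with the supplemented diet and 5.86 to 6.19 with the regular diet, with 6 of 9 tested members higher, where 10.8% of all genes tested were, and Ms4a1 and Fcer2 lay below the level filter. The mean of 20 myeloid markers was 5.93 to 5.99 with the supplemented diet and 5.77 to 5.90 with the regular diet. Of 14 tested myeloid markers 4 were higher and 1 was lower, where 10.8% of all genes were higher and 22.9% lower, while Itgam, S100a8, S100a9, Adgre1, Fcgr1a and Cd163 lay below the filter. The mean of 13 T cell markers was 10.06 to 10.29 with the supplemented diet and 10.30 to 10.51 with the regular diet. Of these 13 markers 5 were lower, 0 were higher and 8 did not pass, where 22.9% of all genes were lower. Cd4 had the largest fall of the 13 with the supplemented diet against the regular one (log2 difference -0.59, SE 0.11, adjusted p = 0.000301). Cd3e fell by 0.29 (SE 0.078, adjusted p = 0.00604). The myeloid markers Lyz2 (0.041, adjusted p = 0.824) and Csf1r (0.029, adjusted p = 0.738) did not pass. The part of these shifts in the results below was not tested. Fits with the B cell or myeloid mean as a covariate are given with them. The myeloid means of the supplemented and regular arrays did not overlap, so that fit cannot tell this mean and diet apart.

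Genes of the pathway fell together with the supplemented diet. Against the regular diet 19 of the 30 genes were lower, 0 were higher and 11 did not pass, where 22.9% of all genes tested were called lower and 10.8% higher (33.7% in either direction). The median difference of the 30 genes was -0.24, against 0.0006 over all genes tested, and 24 of 30 differences were negative. The genes that fell included Pgk1, Gpi, Ldha, Tkt, Pkm, Ldhb, Taldo1 and Tpi1, with log2 differences of -0.924 to -0.435. For 10 genes (Hk1, Gpi, Tpi1, Pgk1, Pkm, Ldha, Taldo1, Tkt, Pdha1 and Pdhb) each supplemented array lay below each regular array, where 9.92% of all genes did so. For 0 of the 30 each supplemented array lay above, where 2.22% of all genes did so. Centring each array on its median gave 21 lower and 0 higher among the 30 genes, while over all genes it moved the split to 312 higher and 3343 lower, against 1173 higher and 2488 lower as deposited.

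**Figure D1:**
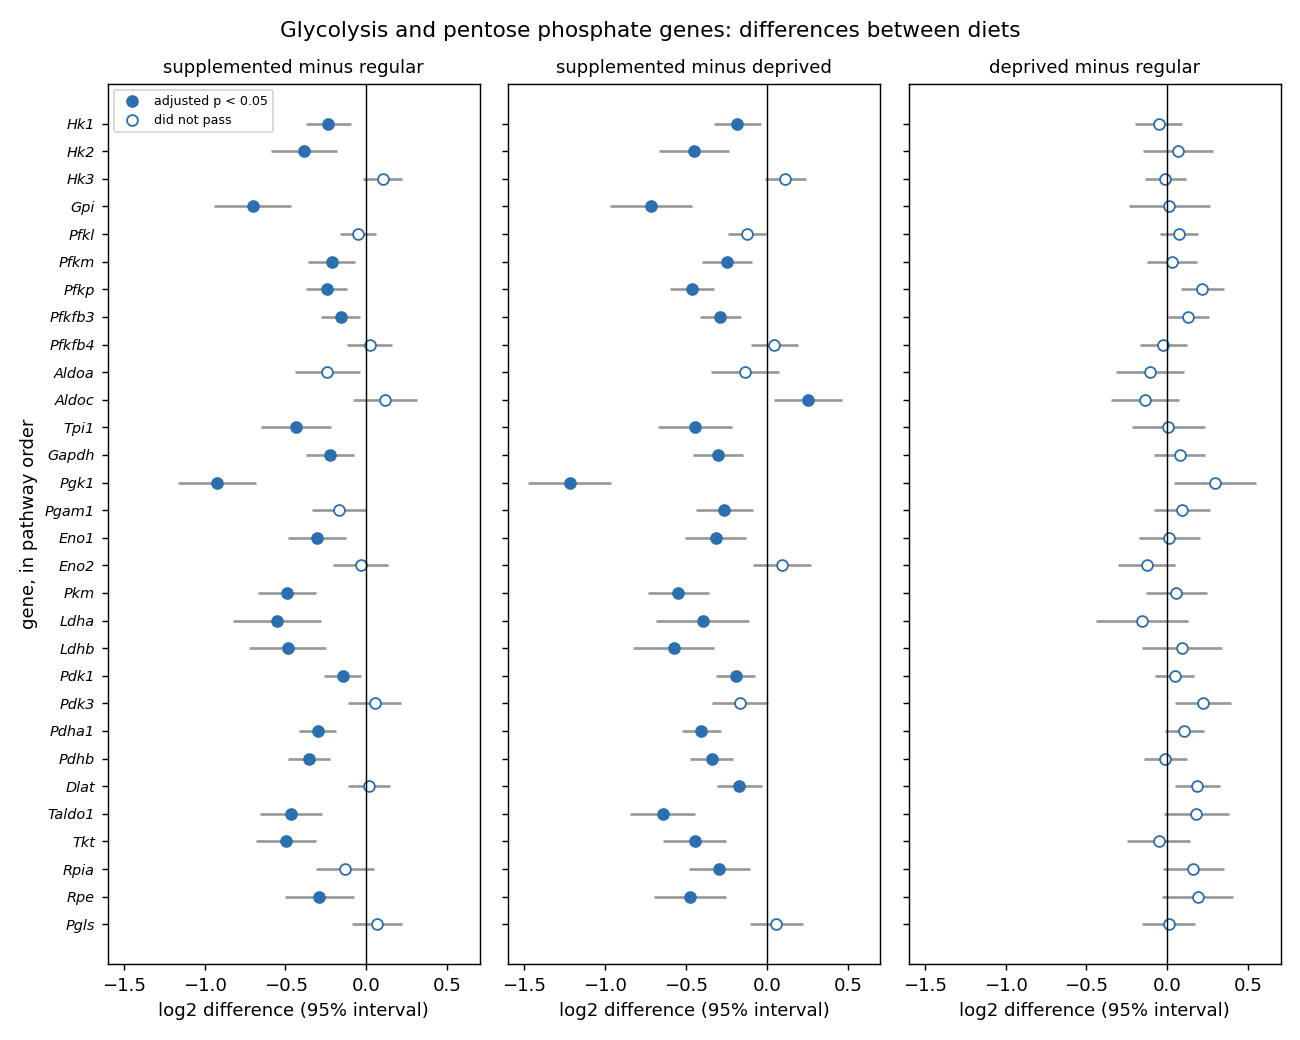
Log2 difference (horizontal axis, dots, with 95% intervals from limma as bars) of the 30 genes in pathway order for the 3 comparisons of diets; filled dots passed an adjusted p of 0.05 and open dots did not. In both comparisons with the supplemented diet most dots lie left of 0, with Pgk1 farthest at -0.92 and -1.22, while the deprived diet against the regular one has 0 filled dots.

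The promoters of several genes that fell are shown because the pathway is known for control by factors that bind short motifs around a CGTG core, among them Myc and Hif1a. The sequences run from 250 bases before to 50 bases after the annotated start of the gene (RefSeq promoter table, build GRCr8). Capitals mark ACGTG or GCGTG, searched on both strands, so that on the reverse strand they read CACGT or CACGC. A palindromic CACGTG counts as 2 matches of ACGTG because it holds that motif on both strands.
Gpi (chr1:95993212-95993511, minus strand): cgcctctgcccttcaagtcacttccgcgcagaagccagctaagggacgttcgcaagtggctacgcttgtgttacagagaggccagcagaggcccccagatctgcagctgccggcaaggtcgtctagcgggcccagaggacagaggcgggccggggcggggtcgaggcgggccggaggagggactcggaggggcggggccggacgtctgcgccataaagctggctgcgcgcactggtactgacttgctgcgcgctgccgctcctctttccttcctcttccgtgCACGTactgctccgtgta
Ldha (chr1:106507842-106508141, plus strand): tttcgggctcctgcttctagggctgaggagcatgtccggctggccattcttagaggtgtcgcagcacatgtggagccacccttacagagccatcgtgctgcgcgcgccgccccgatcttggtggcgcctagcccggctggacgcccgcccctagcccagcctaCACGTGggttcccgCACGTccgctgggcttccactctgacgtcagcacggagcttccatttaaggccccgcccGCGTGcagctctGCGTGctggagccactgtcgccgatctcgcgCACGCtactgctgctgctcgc
Pdhb (chr15:19182539-19182838, plus strand): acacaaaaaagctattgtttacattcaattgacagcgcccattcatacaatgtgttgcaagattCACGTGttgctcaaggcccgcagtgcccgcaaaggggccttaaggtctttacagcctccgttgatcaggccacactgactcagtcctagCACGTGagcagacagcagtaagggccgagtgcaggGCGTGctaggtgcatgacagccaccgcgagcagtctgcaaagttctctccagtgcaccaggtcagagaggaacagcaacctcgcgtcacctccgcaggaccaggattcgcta
Tkt (chr16:5729982-5730281, plus strand): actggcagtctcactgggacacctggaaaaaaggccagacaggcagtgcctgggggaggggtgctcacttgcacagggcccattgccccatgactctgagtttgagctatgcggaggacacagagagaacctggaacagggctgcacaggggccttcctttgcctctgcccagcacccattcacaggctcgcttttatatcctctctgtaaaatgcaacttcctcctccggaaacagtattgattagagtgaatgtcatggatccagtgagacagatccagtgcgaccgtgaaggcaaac
The Gpi promoter held 1 match, that of Ldha 6, that of Pdhb 5 and that of Tkt 0. The table had promoters for 28 of the 31 genes, with none for Pgk1, Pgd and Pgls. ACGTG or GCGTG occurred in 21 of the 28, against 41.6% of 33469 promoters in the table. Among the genes lower with the supplemented diet against the regular one, 13 of 18 promoters held a match, and among the other genes 8 of 10 did. CACGTG occurred in 3 of the 28 (Ldha, Pdhb and Pfkfb3), against 6.42% of all promoters. The Sp1-type motif GGGCGG, also searched on both strands, occurred in 22 of the 28 and in 33.1% of all promoters. The vitamin D receptor motif known as DR3 occurred in 0 of the 28 and in 0.0986% of all promoters. A match describes the letters in this window and is not evidence of binding.

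Hexokinases trap glucose in the cell by phosphorylation, and glucose phosphate isomerase (Gpi) makes fructose 6-phosphate from the product. Gpi read 9.71, 9.77, 9.66, 9.47 and 9.52 on the deprived arrays, 9.42, 9.56 and 9.91 (lowest, median, highest) on the regular arrays and 8.48, 8.99 and 9.22 on the supplemented arrays. All 6 supplemented arrays were below the lowest array of either other diet. The difference between the supplemented and the regular diet was -0.70 (SE 0.12, adjusted p = 9.27e-05), a ratio of 0.614. Hk1, the widely expressed isozyme, ran from 7.84 to 8.21 on supplemented arrays, against 8.23 to 8.52 on regular ones, and fell by 0.24 (SE 0.067, adjusted p = 0.00996). Hk2, the inducible isozyme of growing cells, fell by 0.38 (SE 0.098, adjusted p = 0.00488), and its groups overlapped. Hk3, an isozyme known from myeloid cells, had a difference of 0.10 (SE 0.058, adjusted p = 0.171) and did not pass.

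Phosphofructokinase commits sugar to glycolysis, and 3 genes encode its liver (Pfkl), muscle (Pfkm) and platelet (Pfkp) subunits. The isozymes differed in whether they passed. Pfkp was at 8.63, 8.61, 8.72, 8.59 and 8.77 on the deprived arrays, at 8.31, 8.45 and 8.59 on the regular arrays and at 8.07, 8.21 and 8.35 on the supplemented arrays. Its means were ordered opposite to the vitamin D dose, but the deprived and regular diets did not differ past the threshold (adjusted p = 0.0853). Each deprived array lay above each regular one only narrowly, with the lowest deprived array at 8.594 and the highest regular one at 8.593. The supplemented and regular arrays overlapped slightly. Pfkp fell by 0.245 with the supplemented diet against the regular one (SE 0.061, adjusted p = 0.0041). Pfkm fell by 0.215 (SE 0.071, adjusted p = 0.0236), and Pfkl had a difference of -0.051 (SE 0.054, adjusted p = 0.475). Whether the 3 isozymes differ in their response was not tested. Among the bifunctional enzymes that make and remove fructose 2,6-bisphosphate, the activator of phosphofructokinase, Pfkfb3 fell by 0.16 (SE 0.058, adjusted p = 0.0411) and Pfkfb4 had a difference of 0.021 (SE 0.067, adjusted p = 0.822).

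Aldolase splits the 6-carbon sugar, and triose phosphate isomerase (Tpi1) interconverts the products. Tpi1 read 8.11, 7.98, 7.88, 7.55 and 7.75 on the deprived arrays, 7.63, 7.83 and 8.16 on the regular arrays and 7.18, 7.44 and 7.61 on the supplemented arrays. The supplemented and regular arrays did not overlap, and Tpi1 fell by 0.435 (SE 0.105, adjusted p = 0.0032). Aldoa, the main aldolase of blood and muscle cells, had a difference of -0.24 (SE 0.097, adjusted p = 0.0591) and missed the threshold. Regular replicate 1 lay far above its group, and without it the difference was smaller, at -0.153, and did not pass. Aldoc, the isozyme best known from brain, had a difference of 0.12 (SE 0.097, adjusted p = 0.356).

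The later enzymes, which recover ATP, held the gene with the largest difference of the 30. Phosphoglycerate kinase (Pgk1), which catalyses the first step that yields ATP, read 9.94, 10.14, 9.93, 9.95 and 9.89 on the deprived arrays, 9.52, 9.62 and 9.88 on the regular arrays and 8.43, 8.63 and 9.34 on the supplemented arrays. The 3 diets did not overlap, with the deprived arrays highest and the supplemented arrays lowest. Pgk1 was 1.9-fold lower with the supplemented diet than with the regular one (log2 difference -0.92, SE 0.12, 95% interval -1.17 to -0.68, adjusted p = 7.39e-06).

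Pyruvate kinase (Pkm), which makes pyruvate, read 9.71, 9.77, 9.56, 9.56 and 9.53 on the deprived arrays, 9.39, 9.53 and 9.84 on the regular arrays and 8.80, 9.17 and 9.22 on the supplemented arrays. No supplemented array reached the lowest array of either other diet, and the difference from the regular diet was -0.49 (SE 0.087, adjusted p = 0.000198). Enolase 1 (Eno1) fell by 0.31 (SE 0.087, adjusted p = 0.0103) and glyceraldehyde phosphate dehydrogenase (Gapdh) fell by 0.23 (SE 0.071, adjusted p = 0.019). Both overlapped between the diets. Phosphoglycerate mutase (Pgam1) had a difference of -0.17 (SE 0.08, adjusted p = 0.101), and the neuronal enolase Eno2 had one of -0.034 (SE 0.082, adjusted p = 0.762). Gapdh is widely used as a constant reference gene, and in the values as deposited it was lower with the supplemented diet. Its difference was near the median of all genes in its quartile of mean level (-0.207). After quantile normalization the limma difference of Gapdh was -0.049 and did not pass (adjusted p = 0.613).

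**Figure D2:**
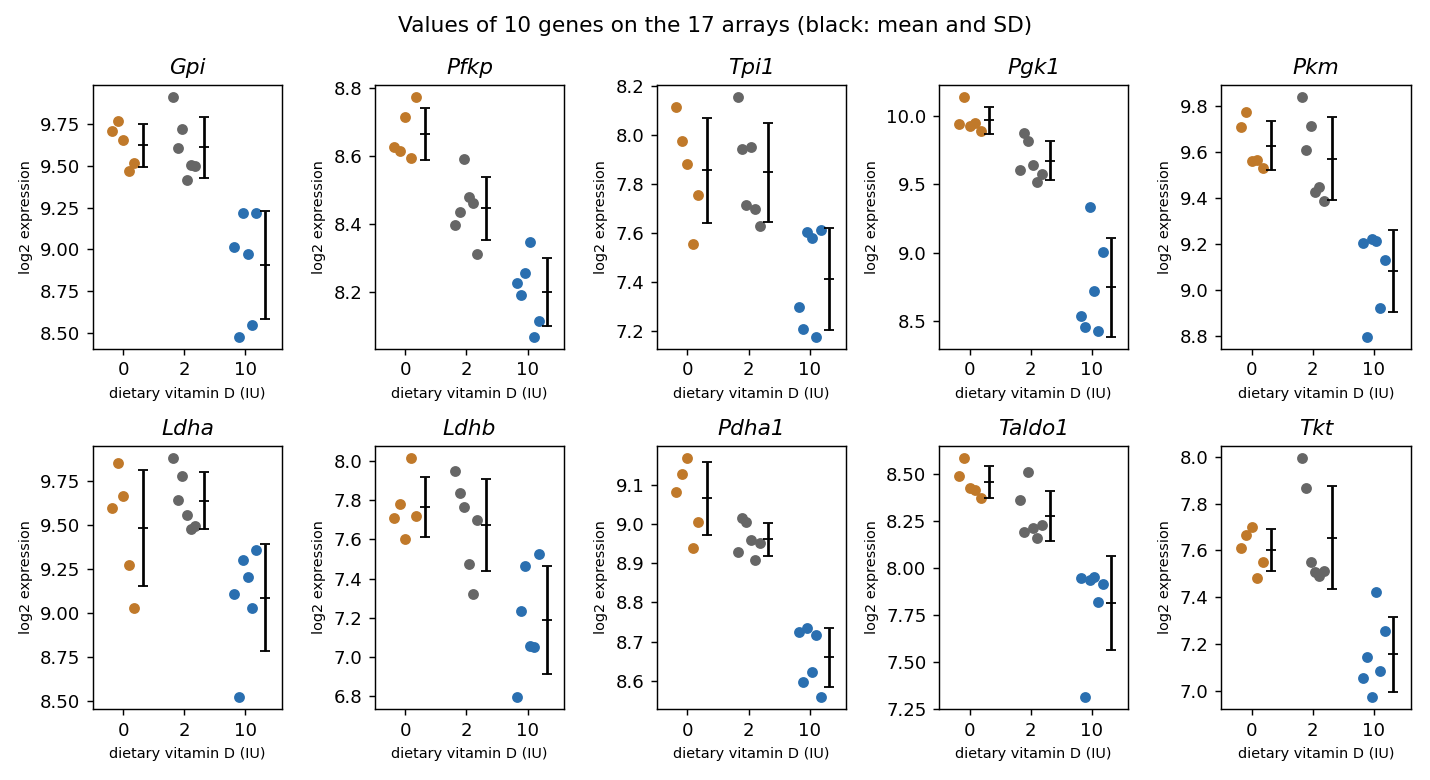
Log2 expression (vertical axis) of 10 genes on each of the 17 arrays against dietary vitamin D of 0, 2 and 10 IU, with 1 dot per array and the mean and SD of each diet in black. The 10 IU arrays have the lowest mean in every panel shown, and only Pgk1 has no overlap among all 3 diets.

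Lactate dehydrogenase is built from an A subunit (Ldha), which favours lactate formation, and a B subunit (Ldhb). Ldha read 9.60, 9.85, 9.66, 9.27 and 9.03 on the deprived arrays, 9.48, 9.60 and 9.88 on the regular arrays and 8.52, 9.16 and 9.36 on the supplemented arrays. The deprived arrays were widely scattered, and deprived replicates 5 and 6 lay within the supplemented range. Ldha fell by 0.55 with the supplemented diet against the regular one (SE 0.13, adjusted p = 0.00293). Ldhb read 7.71, 7.78, 7.60, 8.02 and 7.72 on the deprived arrays, 7.32, 7.73 and 7.95 on the regular arrays and 6.80, 7.15 and 7.52 on the supplemented arrays. Both subunit genes were therefore lower with the supplemented diet than with the regular one, with a difference of -0.49 for Ldhb (SE 0.12, adjusted p = 0.00273).

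Pyruvate dehydrogenase takes pyruvate into the mitochondrial cycle, and its kinases switch the complex off. The genes of both subunits of its first enzyme fell. Pdha1, the alpha subunit, read 9.08, 9.13, 9.17, 8.94 and 9.01 on the deprived arrays, 8.91, 8.95 and 9.01 on the regular arrays and 8.56, 8.67 and 8.74 on the supplemented arrays. Each supplemented array was below each other array, and the difference from the regular diet was -0.30 (SE 0.056, adjusted p = 0.000298). Pdhb, the beta subunit, fell by 0.35 (SE 0.062, adjusted p = 0.00017), again with no overlap. Dlat, the acetyltransferase core, had a difference of 0.017 (SE 0.064, adjusted p = 0.853). Of the inhibitory kinases, Pdk1 fell by 0.15 (SE 0.056, adjusted p = 0.048) and Pdk3 had a difference of 0.053 (SE 0.079, adjusted p = 0.624).

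In the pentose phosphate pathway 3 genes of the non-oxidative branch, which links pentoses back to glycolysis, were lower (Tkt, Taldo1 and Rpe), and Rpia of the same branch did not pass. Transketolase (Tkt) read 7.61, 7.67, 7.70, 7.48 and 7.55 on the deprived arrays, 7.49, 7.53 and 7.997 on the regular arrays and 6.97, 7.12 and 7.42 on the supplemented arrays. Transaldolase (Taldo1) read 8.49, 8.59, 8.43, 8.42 and 8.37 on the deprived arrays, 8.16, 8.22 and 8.51 on the regular arrays and 7.31, 7.93 and 7.95 on the supplemented arrays. For both genes all supplemented arrays lay below all other arrays. Against the regular diet Tkt fell by 0.50 (SE 0.09, adjusted p = 0.000234) and Taldo1 fell by 0.465 (SE 0.092, adjusted p = 0.000578). Rpe, the ribulose phosphate epimerase, fell by 0.29 (SE 0.102, adjusted p = 0.0326). The ribose phosphate isomerase Rpia had a difference of -0.13 (SE 0.086, adjusted p = 0.235). Pgls, the lactonase of the oxidative branch, had one of 0.067 (SE 0.075, adjusted p = 0.498).

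In the 17 fits that left out 1 array each, 14 of the 19 calls against the regular diet passed every time. Gapdh did not pass without supplemented replicate 2 (adjusted p = 0.0532). Pfkm did not pass without supplemented replicate 5 or regular replicate 3, and Rpe did not without supplemented replicate 2 or 6 or regular replicate 2 or 3. The call of Pfkfb3 ended without supplemented replicate 2, 4, 5 or 6 or regular replicate 1, 3, 4 or 5. The call of Pdk1 ended with 12 of the 17 arrays left out in turn, those other than supplemented replicates 1 and 4, deprived replicates 3 and 4 and regular replicate 5. Aldoa passed without supplemented replicate 4 or 6 or regular replicate 4, while its difference shrank to -0.153 without regular replicate 1. Pgam1 passed without regular replicate 3. After quantile normalization 13 of the 30 genes were lower and 0 higher, and Gapdh, Eno1, Pfkp, Pdk1, Hk1 and Rpe no longer passed.

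Several genes have more than 1 transcript cluster on the array, and near-identical processed copies of abundant glycolytic genes such as Gapdh are known, so a value of these genes may hold signal from a copy. Calls of single clusters come from a separate limma fit of all 29214 transcript clusters, with p-values adjusted over these. All 16 clusters annotated to Gapdh were lower with the supplemented diet than with the regular one, with differences of -0.51 to -0.23 and a median of -0.34. The cluster used for Gapdh above was thus the one with the smallest fall. All 3 clusters of Eno1 (-0.36 to -0.31) and all 3 of Pkm (-0.57 to -0.49) were lower, as were both of Pdha1 (-0.30 and -0.28). Of the 2 clusters of Ldha only the one used was called, and the other, with a mean level of 6.44, had a difference of -0.057. Neither cluster of Pgam1 or Dlat was called.

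**Figure D3:**
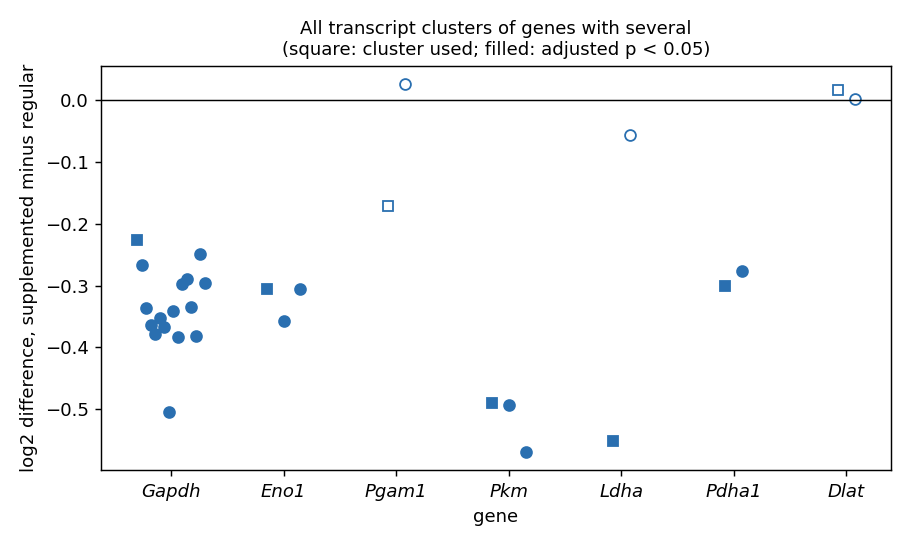
Log2 difference between the supplemented and the regular diet (vertical axis) for each transcript cluster of the 7 genes with more than 1. Squares are the clusters used, and filled symbols passed an adjusted p of 0.05 in the fit of all transcript clusters. The 16 Gapdh clusters all lie between -0.51 and -0.23, while the 2 Ldha clusters lie at -0.55 and -0.057.

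Falls with the supplemented diet were more frequent among strong signals over all genes. In the top quartile of genes by mean level 10 of 12 pathway genes were lower, where 52.6% of all genes in that quartile were. In the next quartile 8 of 12 were lower, where 28.6% of all genes were. In the lower quartiles 1 of 3 and 0 of 3 were lower, where 7.98% and 2.32% of all genes were. The median difference in the top quartile was -0.30 for the pathway genes and -0.21 for all genes, and in the next quartile -0.23 and -0.085.

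**Figure D4:**
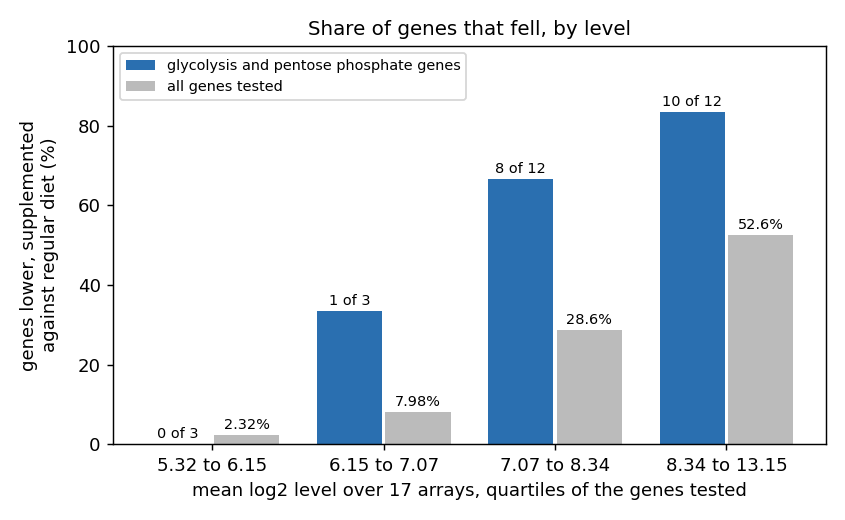
Share of genes called lower with the supplemented diet than with the regular one (vertical axis, percent) in quartiles of mean log2 level (horizontal axis), for the pathway genes (blue) and all genes tested (grey). Both shares are highest among the strongest signals, with 10 of 12 pathway genes and 52.6% of all genes in the top quartile.

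The level of the 30 genes also moved with the spread of the arrays. Their mean ran from 7.97 to 8.13 for the deprived diet, from 7.93 to 8.11 for the regular diet and from 7.63 to 7.83 for the supplemented diet, and the lowest means belonged to supplemented replicates 2 and 5, which had the lowest spread. With array spread as a covariate in limma, 0 of the 30 genes passed between the supplemented and regular diets (2 had an unadjusted p below 0.05), and their median difference was -0.015. The same fit called 0 of 10879 genes overall (1192 had an unadjusted p below 0.05). Pgk1 had a difference of -0.56 there (SE 0.22, adjusted p = 0.357). Because the spread of the supplemented arrays did not overlap that of the regular arrays, diet and spread cannot be told apart in this design. Without supplemented replicates 2 and 5, 13 of the 30 genes were lower and 0 higher. With the mean of the B cell markers as a covariate 16 were lower, and with the mean of the myeloid markers 11 were. Diet and the myeloid mean cannot be told apart either, because the supplemented and regular arrays did not overlap in it.

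**Figure D5:**
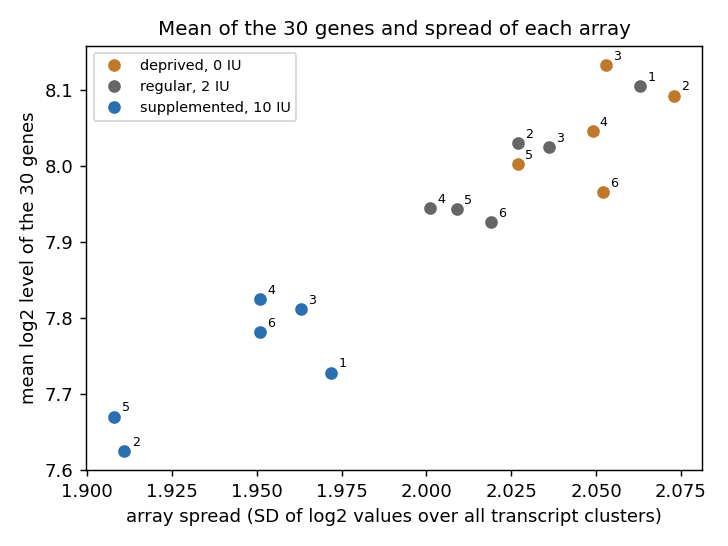
Mean log2 level of the 30 genes (vertical axis) against the spread of each array, the SD across its transcript clusters (horizontal axis), with replicate numbers beside the dots. The 6 supplemented arrays lie apart at the lower left, with spreads of 1.91 to 1.97 and means of 7.63 to 7.83, and replicates 2 and 5 lowest.

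Set against the deprived diet, the supplemented diet had 22 of the 30 genes lower, 1 higher and 7 that did not pass, where 28.6% of all genes tested were lower and 18.6% higher (47.2% in either direction). This comparison shares its supplemented arrays with the one above. The median difference was -0.30, against 0.0011 over all genes. Pgk1 was 2.33-fold lower (log2 difference -1.22, SE 0.12, adjusted p = 2.91e-07), with 8.43 to 9.34 on the supplemented arrays and 9.89 to 10.14 on the deprived arrays. For 14 genes each supplemented array lay below each deprived array (17.7% of all genes did so): Hk1, Gpi, Pfkp, Pgk1, Pgam1, Pkm, Ldhb, Pdk1, Pfkfb3, Taldo1, Tkt, Rpe, Pdha1 and Pdhb. For 0 of the 30 they lay above throughout, where 6.4% of all genes did so. After Pgk1 the largest falls were those of Gpi (-0.72, SE 0.12), Taldo1 (-0.64, SE 0.096) and Ldhb (-0.58, SE 0.12).

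Markers of other cells moved with this comparison too. The array mean of 15 stromal and endothelial markers ran from 5.73 to 5.84 with the supplemented diet and from 5.56 to 5.66 with the deprived diet, with 6 of 9 tested members higher and 1 lower, while Dcn, Lum, Pdgfra, Kdr, Tek and Cxcl13 lay below the level filter. The mean of 9 dendritic cell markers ran from 6.91 to 7.02 with the supplemented diet and from 6.78 to 6.86 with the deprived diet, with 1 of 8 tested members higher and Clec9a below the filter. The groups of arrays did not overlap in either mean. They did not overlap in the mean of the myeloid markers (3 of 14 tested higher, 1 lower) or of 6 red blood cell markers (1 of 4 tested higher), whereas the means of the B cell markers (5 of 9 tested higher, 1 lower) did. Over all genes 18.6% were called higher in this comparison. The lower 2 quartiles of all genes by mean level had median differences of 0.143 and 0.089. With the myeloid marker mean as a covariate 18 of the 30 pathway genes were lower and 0 higher, and with the B cell marker mean 18 were lower and 1 higher. Since the myeloid means did not overlap, that fit cannot tell this mean and diet apart. The part of the stromal, dendritic and red blood cell markers was not tested.

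Aldoc was the 1 gene called higher. It read 6.16 to 6.38 on the supplemented arrays and 6.08, 6.23, 5.73, 6.01 and 5.85 on the deprived arrays, a difference of 0.255 (SE 0.101, adjusted p = 0.0439). That call ended on leaving out supplemented replicate 2, 4, 5 or 6 or deprived replicate 4, 5 or 6. Aldoc had a mean level of 6.118, in the lowest quartile, where all genes had a median difference of 0.143 in this comparison. Pgam1 (-0.26, SE 0.084), Rpia (-0.29, SE 0.09) and Dlat (-0.17, SE 0.067) passed here and not against the regular diet. The deprived and regular diets themselves were not shown to differ for these 3 genes. Hk3, Pfkl, Aldoa, Eno2, Pdk3, Pfkfb4 and Pgls did not pass.

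Of these 23 calls, 19 passed with each of the 17 arrays left out in turn. The call of Ldha ended without supplemented replicate 2 or deprived replicate 2, 3 or 4. That of Hk1 ended without supplemented replicate 2 or 5 or deprived replicate 2, 3 or 4, and that of Dlat without supplemented replicate 1, 2, 5 or 6 or deprived replicate 2, 4 or 5. Pfkl passed without supplemented replicate 1 and Pdk3 without supplemented replicate 4. After quantile normalization 15 genes were lower, with Gapdh, Ldha, Pdhb, Pgam1, Eno1, Pdk1, Hk1, Dlat and Aldoc no longer passing and Pfkl added. With each array centred on its median, which moved the median difference of all genes to -0.10, 24 of the 30 genes were lower and Aldoc no longer passed, and all genes split into 607 higher and 4177 lower, against 2019 and 3113. With array spread as a covariate 0 of 30 passed (4 had an unadjusted p below 0.05).

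Deprivation changed none of the 30 genes past the threshold. Against the regular diet 0 of 30 were called (5 had an unadjusted p below 0.05 in limma), where 1.49% of all genes were called higher and 0.184% lower (1.67% in either direction). The regular arrays are those of the first comparison. The median difference was 0.052, and 21 of 30 differences were positive. All deprived arrays lay above all regular arrays for Pfkp and Pgk1, where 4.52% of all genes did so, and for 0 of the 30 they lay below throughout, where 1.01% did. Pgk1 had a difference of 0.30 (SE 0.12, adjusted p = 0.219), with 9.89 to 10.14 on the deprived arrays and 9.52 to 9.88 on the regular arrays. Pfkp had a difference of 0.22 (SE 0.064, adjusted p = 0.0853). With only these 2 diets fitted Pgk1 and Pfkp passed, and with array weights Pfkp and Pdk3 did. The 95% interval of the difference was 0.084 to 0.351 for Pfkp and -0.443 to 0.131 for Ldha, so the arrays leave room for shifts of that size in single genes. The F test over the 3 diets called 22 of the 30 genes, where 45.3% of all genes tested were called.

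Neighbouring genes of carbon metabolism were counted from lists of further enzymes, transporters and regulators, to be read beside the 22.9% of all genes called lower and 10.8% called higher with the supplemented diet against the regular one. Among 18 further glycolysis and pentose phosphate enzymes 5 were lower with the supplemented diet than with the regular one, 0 were higher and 13 did not pass (median -0.041), a share lower that is close to the 22.9% of all genes. The largest falls were those of Prps1 (-0.84, SE 0.12, adjusted p = 1.53e-05), which activates ribose phosphate for nucleotide synthesis, and Pfkfb2 (-0.51, SE 0.10), a bifunctional regulator of phosphofructokinase. Bpgm, the bisphosphoglycerate mutase, fell by 0.42 (SE 0.096) and the ADP-dependent glucokinase Adpgk by 0.30 (SE 0.083).

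Among 9 transporters 1 was lower, 1 higher and 7 did not pass. Basigin (Bsg), the partner protein of lactate carriers, fell by 0.36 (SE 0.074, adjusted p = 0.000776), while the lactate exporter Slc16a3 rose by 0.26 (SE 0.075, adjusted p = 0.00968). The glucose transporter Slc2a1 had a difference of -0.17 (SE 0.079, adjusted p = 0.0945), and the mitochondrial pyruvate carrier subunit Mpc2 had one of -0.22 (SE 0.088, adjusted p = 0.0624). Of 9 further pyruvate dehydrogenase genes 4 were lower, 1 higher and 4 did not pass. They included the shared dehydrogenase subunit Dld (-0.32, SE 0.075) and the phosphatases Pdp1 (-0.38, SE 0.094) and Pdp2 (-0.29, SE 0.085), which reactivate the complex, while the lipoyl transferase gene Lipt1 rose by 0.265 (SE 0.07).

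The tricarboxylic acid cycle, which receives the product of pyruvate dehydrogenase, had 16 of 18 genes lower, 0 higher and 2 that did not pass (median -0.39). Among them were Suclg2, a subunit of succinyl-CoA ligase (-0.69, SE 0.10), Idh3b, a subunit of isocitrate dehydrogenase (-0.59, SE 0.10), Sdhd, a subunit of succinate dehydrogenase (-0.57, SE 0.083), and malate dehydrogenase Mdh1 (-0.50, SE 0.07). These named cycle genes had means of 8.815 to 9.351, in the top quartile of mean level, where 52.6% of all genes were lower. Whether the cycle genes fell beyond genes of like level was not tested. Gluconeogenesis and glycogen genes numbered 10, with 3 lower, 2 higher and 5 not passing. The glycogen phosphorylases Pygl (-0.41, SE 0.066) and Pygb (-0.26, SE 0.069) fell with Ugp2 (-0.43, SE 0.069), which makes the UDP-glucose for glycogen. G6pc1, a glucose 6-phosphatase known from liver, rose by 0.17 (SE 0.065, adjusted p = 0.0446), a call that ended with 12 of the 17 arrays left out in turn.

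Among 22 regulators of glycolysis 5 were lower, 1 higher and 16 did not pass, so that the share lower was about that of all genes (22.9%). Most differences were negative all the same, with 19 negative, 3 positive and a median of -0.113. The mTOR activator Rheb (-0.48, SE 0.075), the kinase Akt2 (-0.41, SE 0.094), the oxidant response factor Nfe2l2 (-0.44, SE 0.10) and Myc (-0.26, SE 0.071, adjusted p = 0.00776) fell. Of 16 hypoxia-responsive genes outside glycolysis 6 were lower, 2 higher and 8 did not pass, where 22.9% of all genes were lower and 10.8% higher. The differences of the list were balanced, with 8 positive, 8 negative and a median of 0.0094. The falls included Ankrd37 (-0.54, SE 0.12), the oxidase Ero1a (-0.31, SE 0.076), the mitophagy receptor Bnip3l (-0.205, SE 0.064) and the lipid droplet protein Plin2 (-0.245, SE 0.081). The call of Plin2 ended without supplemented replicate 1 or 5 or regular replicate 1 or 2. After quantile normalization the difference of Bnip3l was -0.019 (adjusted p = 0.836) and no longer passed, and neither did those of Dld (-0.14, adjusted p = 0.083) and G6pc1 (0.081, adjusted p = 0.316).

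With the deprived diet against the regular one, 1 of 10 gluconeogenesis and glycogen genes, 1 of 22 regulators and 2 of 16 hypoxia-responsive genes were higher, and the other lists held 0 calls. Over all genes 1.49% were called higher and 0.184% lower, so most calls of this comparison were higher. The mTOR inhibitor Ddit4 rose by 0.55 (SE 0.08, adjusted p = 0.000988), and Ugp2 (0.30, SE 0.072, adjusted p = 0.039), Ero1a (0.33, SE 0.079, adjusted p = 0.0367) and the collagen prolyl hydroxylase P4ha1 (0.41, SE 0.099, adjusted p = 0.0368) rose as well. The calls of Ugp2 and P4ha1 each ended with 9 of the 17 arrays left out in turn and that of Ero1a with 8. After quantile normalization none of these 3 passed (adjusted p = 0.0893 for Ugp2, 0.106 for P4ha1 and 0.0957 for Ero1a). Hif1a, the oxygen-regulated factor that drives many of the pathway genes, had a difference of 0.24 (SE 0.067, adjusted p = 0.0634) against the regular diet. It fell by 0.355 with the supplemented diet against the deprived one (SE 0.067, adjusted p = 0.000216), but after quantile normalization the difference was -0.15 and did not pass (adjusted p = 0.0885). In the same comparison falls were found for Ankrd37 (-0.87, SE 0.12), Nfe2l2 (-0.80, SE 0.11), Ugp2 (-0.72, SE 0.072) and P4ha1 (-0.69, SE 0.099).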

How the data were processed

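The deposited table gives a log2 value for each transcript cluster on each of 17 arrays. Sense-strand cDNA was amplified from 250 ng of RNA and labelled, per the labels' protocols. The submitters' processing notes name RMA, which corrects background, quantile-normalizes and summarizes probes, and Partek 6.0. Since no log base is stated, it was taken from the size of the values. The sources used here give no scan dates, batches, sort gates or feed amount behind the IU. The number of arrays limits the precision.

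Of 29214 transcript clusters, the platform annotation gave 15310 a single gene symbol and 323 several, and did not list 13581. Names were updated for 15279 clusters through the RefSeq gene table. Each of 14506 genes was represented by its cluster with the highest mean, and the dimmest 25% were left out, which kept 10879 with a mean of at least 5.321. With limma 3.58.1 (R 4.3.3), 1 linear model held all 3 diets (14 residual degrees of freedom), and 3 contrasts and an F test were adjusted by Benjamini-Hochberg over all genes. The fit was tested on simulated data with independent noise per gene and no difference in spread between arrays of different diets. That test therefore does not cover the narrower spread of the supplemented arrays. No 2 arrays held identical values.

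The members and lists were chosen with earlier results of these data known. All members are named, and up to 4 genes with the smallest p of each neighbouring list and contrast. Array values are given for the members with the smallest p and for isozyme pairs. Alternatives changed the normalization, level filter, clusters, variance model, weights, covariates, threshold and arrays.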

Additional observations from a re-analysis of the deposited data

Results flagged for a closer look

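In 93 sets of values (the 30 genes and the array spread, in each of the 3 diets), 4 held an array far from the rest of its diet, where chance gives about 1 in 20. Aldoa on regular replicate 1 was the highest of its diet at 9.95, with the next array at 9.457. Pgk1 on deprived replicate 3 was the highest of its diet at 10.138, with the next at 9.948. Pgam1 on supplemented replicate 1 was the lowest of its diet at 8.833, with the next at 9.114. Taldo1 on supplemented replicate 2 was the lowest of its diet at 7.312, with the next at 7.822.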

How the results depend on the processing

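Of the 30 genes, 19 differed between the supplemented and regular diets, 23 between the supplemented and deprived diets, 0 between the deprived and regular diets and 22 in the F test. Over all genes these counts were 3661, 5132, 182 and 4927. With array spread as a covariate 0, 0, 0 and 0 of the 30 genes passed, and 0, 0, 68 and 72 of all genes. With the myeloid covariate 11 of the 30 passed against the regular diet and 12 in the F test, and over all genes 1737 (supplemented against regular), 2930 (supplemented against deprived) and 2468 (F test). Quantile normalization gave 15 of the 30 genes between the supplemented and deprived diets, and 40 genes overall between the deprived and regular diets. Testing all transcript clusters gave 6901, 10785 and 10011 calls for supplemented against regular, supplemented against deprived and the F test. Without supplemented replicates 2 and 5 the counts over all genes were 2171 (supplemented against regular) and 301 (deprived against regular). Deprived against regular gave 889 genes with array weights, 407 at a threshold of 0.1 and 466 with only those diets fitted, with 2, 1 and 2 of the 30 among them. With 1 array left out the 30 genes gave 15 to 19, 19 to 23, 0 to 0 and 18 to 23 calls in the order above, and all genes 2936 to 4035, 4451 to 5444, 33 to 244 and 4165 to 5191.

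Called differences turned their sign only with the spread covariate, where none passed. Supplemented minus regular became 0.10 for Hk1, 0.042 for Gpi, 0.063 for Tpi1, 0.008 for Gapdh, 0.024 for Pkm, 0.05 for Ldha, 0.096 for Rpe, 0.114 for Pfkfb2, -0.011 for Slc16a3, 0.051 for Dld, -0.071 for G6pc1, 0.093 for Akt2 and 0.028 for Bnip3l. Supplemented minus deprived became 0.253 for Hk1, 0.02 for Hk2, 0.254 for Gpi, -0.2 for Aldoc, 0.206 for Tpi1, 0.002 for Gapdh, 0.013 for Eno1, 0.123 for Pkm, 0.388 for Ldha, 0.025 for Rpe, 0.031 for Dld and -0.1 for G6pc1. The cause was not tested. In every other alternative run that tested the gene, 10 of the 19 calls and 11 of the 23 passed. Hk2 is counted in both, although the run without the dimmest 50% of genes did not test it.

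Replicate numbers gave no clear pairing of the samples, though 5 or 6 pairs per comparison are too few to exclude one. Correlations of same-numbered deviations were -0.119 to 0.133 for supplemented against regular and -0.207 to 0.0766 for deprived against regular. They were -0.114 to 0.195 for supplemented against deprived. In that order 0, 0 and 2 pairs were best with their own number. The fit with the replicate block called 18, 0 and 23 of the 30 genes and 3625, 145 and 5332 of all genes in that order of comparisons.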
